A study of Equus caballus with 13 samples.

Results

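RNA synthesis rates and RNA half-lives were compared gene by gene between chondrocytes of old and of young female horses (Equus caballus). All 11056 genes of the authors' age table were taken, of 11331 listed in either table of the series. Both groups were wild type, with 5 samples each, and each sample was a culture of cells released from cartilage. The cells had 2 days in culture and then 4 h with 4-thiouridine (4sU), a uridine analogue that marks RNA made during that time. Ages in years are not given in the sources used here. The series also holds 3 young male samples, which enter no comparison here. Every sample of the old and young female groups carried its own batch label, so batch and group cannot be told apart.

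The amount of an mRNA is set by how fast it is made and how fast it is destroyed. Synthesis follows transcription and processing in the nucleus, whereas the half-life follows deadenylation, decapping and degradation in the cytoplasm. Chondrocytes are the resident cells of cartilage and make a matrix of type II collagen and the proteoglycan aggrecan, whose mRNAs are among the long-lived ones. Regulators such as immediate-early transcription factors and cytokines usually have mRNAs that decay quickly, so that their amount can follow a change in synthesis closely.

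The table gives 1 group value per gene for each quantity, without replicate values, read counts or p-values. Differences are therefore described by size, as the log2 of old over young, without a test, since nothing in the table shows how far animals differ. The header gives no unit. Half-lives were read as hours, and synthesis rates are in arbitrary units. The implied steady-state level, also in arbitrary units, is the product of both values over ln 2, so that the log2 ratios of synthesis and half-life add up to that of the level. Levels are not stated to be per transcript length. In these bulk cultures, fewer cells of a type and less RNA per cell cannot be told apart.

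A labelling of 4 h resolves half-lives of a similar order best. The main set was therefore restricted to the 9108 genes whose half-lives lay between 1 and 24 h in old as well as young cells. Of the others, 1014 had a half-life under 1 h in a group and 934 had one over 24 h. The limits cut through a continuum of genes. TLCD5 was just inside with 1.00 h in young and 1.23 h in old cells, and MAPKBP1 was just outside with 1.14 and 0.99988 h. At the upper end PLAT, the tissue-type plasminogen activator, was inside with 18.6 and 23.9 h, and SCP2, a lipid transfer protein, was outside with 24.1 and 22.6 h.

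The labelled cell type was checked against 11 chondrocyte markers, and all 11 were listed. ACAN (aggrecan), COL2A1 (type II collagen), COMP, HAPLN1 and CHAD each had an implied level above that of at least 98.97% of the genes in both groups. Such ranks may follow transcript length as well as amount. COL9A1 lay higher than 20.4% of the genes in young and 9.29% in old cells, and CNMD (chondromodulin) higher than 6.18% and 4.66%. Of the markers of other cell types, 1 of 22 for macrophages and leukocytes was listed (CD14), 2 of 16 for endothelium (ERG and VWF), 12 of 21 for synovial and tendon fibroblasts, 6 of 17 for bone and adipocytes, and 5 of 14 for muscle and pericytes. A gene missing from the table may have been filtered out before deposit.

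Half-lives in old cells were slightly shorter across the main set. The median half-life was 3.68 h in young and 3.46 h in old cells, and the median log2 ratio was -0.08, with 36.1% of genes longer in old. Synthesis moved the other way, with a median log2 ratio of 0.07 and 59.9% of genes higher in old. The implied level had a median log2 ratio of -0.01, with 49.1% of genes higher. Few genes passed a 2-fold difference, an absolute log2 ratio of at least 1. For half-life, 24 genes were longer in old (0.264% of the main set) and 57 shorter (0.626%). For synthesis rate, 279 were higher (3.06%) and 152 lower (1.67%), together 4.73%. For the implied level, 157 were higher (1.72%) and 155 lower (1.7%).

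The young female samples were fitted by the authors a further time, in the table that compares young males with young females. The 2 estimates share their libraries, so their difference measures the fitting and not the spread between animals. After removal of a common factor, 95% of 9046 main-set genes repeated within 0.14 on the log2 scale for half-life and within 0.14 for synthesis rate, and 4 genes differed by 2-fold or more in each. The deviations mirrored each other, since the implied level repeated within 0.00082. Of the same genes, 58.7% differed between old and young by more than 0.14 in half-life and 64.5% in synthesis rate. Unlike the repeat, these ratios of old over young were not centred and kept their median shifts of -0.08 and 0.07. The common factor of the repeat was -0.07 on the log2 scale for synthesis rate and level. With the other young estimate the median ratio of old over young was 0.15 for synthesis and 0.058 for level, so the sign of the small median level ratio depends on the fit. The plot of absolute ratios against the repeat shows this separation.

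**Figure D1:**
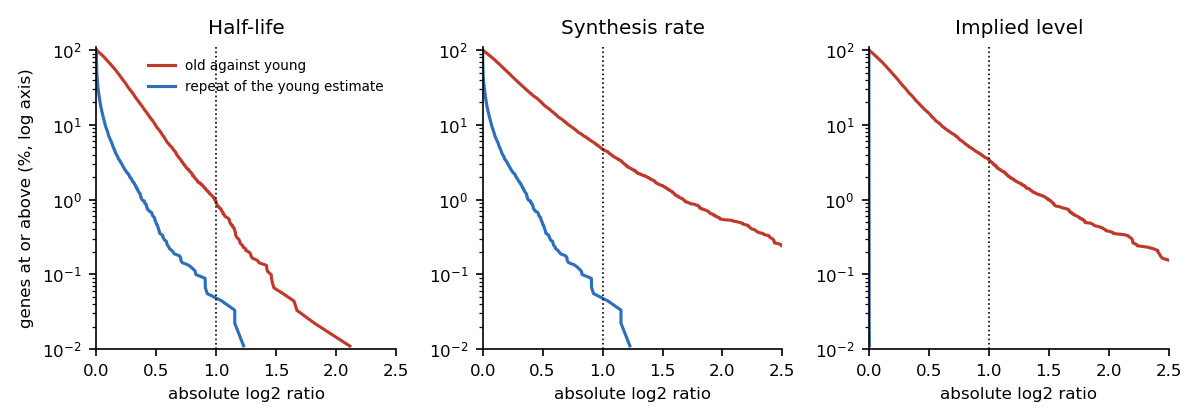
Percentage of main-set genes (log axis) whose absolute log2 ratio is at or above the value on the x axis, in 3 panels (half-life, synthesis, level). Red lines give old against young female cells, not centred. Blue lines give the repeat of the young female estimate after removal of its median shift. The dotted line marks a 2-fold difference. In these panels 81, 431 and 312 genes passed it for old against young, against 4, 4 and 0 for the repeat.

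Within the main set, differences in level went mainly with synthesis. The set was cut on half-life, at 1 and 24 h in both groups, and not on synthesis. Large half-life ratios were thus restricted by the choice of genes, so the shares below hold for this set only. Of the 312 genes that passed 2-fold in level (3.43% of the main set), 210 (67.3%) also did so in synthesis rate and 20 (6.41%) in half-life, with 12 in both. The remaining 94 passed in neither, and the sum of their 2 smaller ratios reached the threshold. Among the 155 genes with a lower level, the median log2 synthesis ratio was -1.18 and the median log2 half-life ratio -0.21. Among the 157 with a higher level these medians were 1.36 and -0.02. Half-life was the larger component in 34 of the 312 genes. Only 3 of these 34 had a mean level at or above the median of the table: COL3A1 (type III collagen), OLFM1 (a secreted olfactomedin-domain glycoprotein) and PPL (periplakin, a linker of intermediate filaments to cell junctions), all lower in old cells.

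Most half-life differences past 2-fold came with a synthesis difference of the opposite sign. Of the 81 genes past 2-fold in half-life (0.889% of the main set), 76 had a synthesis ratio of the opposite sign and 39 had an absolute log2 level ratio under 0.5, while 20 passed 2-fold in level (3.43% of the main set). The 5 with the same sign were COMTD1, C1H15orf48, ELOVL6, DCBLD1 and OLFM1, and they were singled out after their values were seen. Across the main set the half-life and synthesis ratios had Spearman's rho of -0.49 over 9108 genes. The 2 quantities come from one fit and share its error, and in the repeat of the young estimate their deviations had rho of -0.99.

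Differences past 2-fold were concentrated among genes of low signal. When the main set was split into quartiles of mean implied level, with 2277 genes each, 74 of the 81 half-life differences (91.4%) lay in the lowest quartile, 4 in the next, 0 in the third and 3 in the highest. For synthesis rate the counts were 281, 65, 38 and 47, and for level 181, 62, 30 and 39. The small shift toward shorter half-lives had a similar size in each half-life class. The median log2 ratio was -0.09 for genes of 1 to 2 h, -0.08 for 2 to 4 h, -0.09 for 4 to 8 h and -0.07 for 8 to 24 h.

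**Figure D2:**
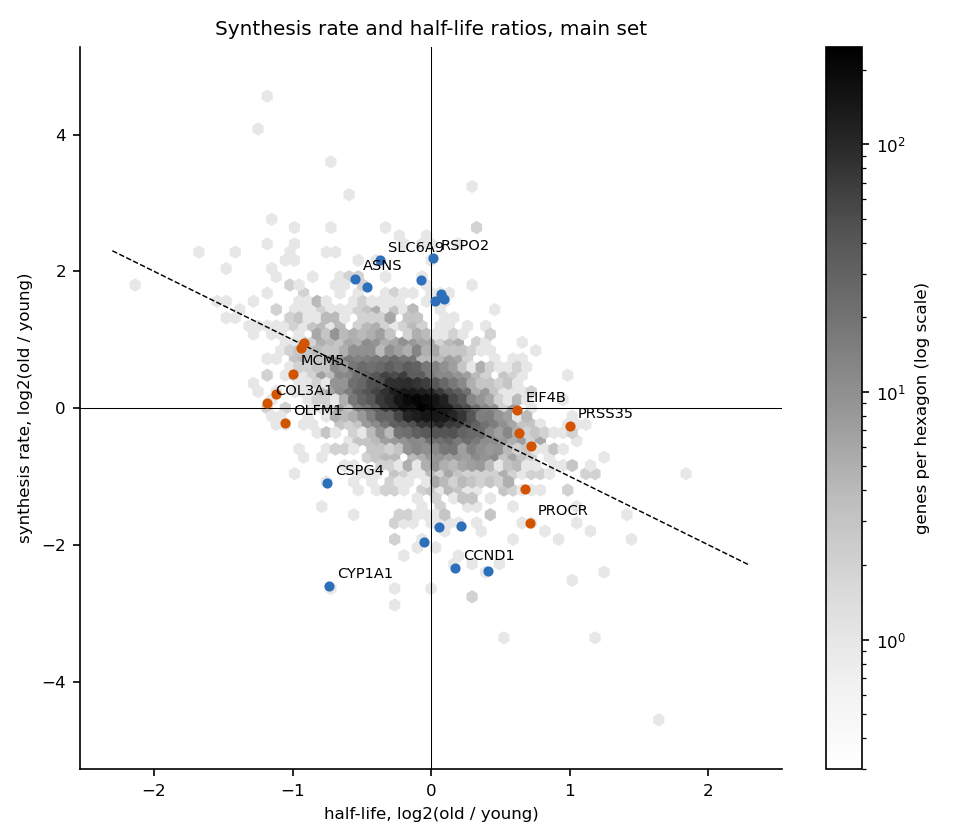
Log2 ratio (old over young) of synthesis rate against that of half-life for the 9108 main-set genes, as counts per hexagon on a log grey scale. Orange points are the genes named for half-life and blue points those named for synthesis rate or level. The dashed line marks an unchanged implied level, along which the cloud is drawn out (rho -0.49).

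Genes were named from the 4387 main-set genes that had a symbol, a well-repeated young estimate and a mean level at or above the median of the table. The 6 largest lengthenings of half-life in old cells belonged to genes of the cell surface, secretion and translation. PRSS35, a serine protease-like secreted protein, had a half-life of 11.9 h in young and 23.8 h in old cells, a 2.00-fold lengthening. ITGA3, the integrin alpha 3 subunit that binds laminin, had 4.28 and 7.05 h. PROCR, the endothelial protein C receptor, had 12.0 and 19.6 h. In PROCR the longer half-life was accompanied by a synthesis rate that was lower by 1.68 on the log2 scale (365.1 in young and 113.9 in old), and the level was 1.96-fold lower. SNED1, an extracellular matrix protein, had 9.41 and 15.0 h, and HTRA4, a secreted serine protease, 9.06 and 14.04 h. EIF4B, a translation initiation factor, had 6.13 and 9.42 h at nearly equal synthesis rates (1931 and 1885). None of these 6 reached a log2 half-life ratio of 1, as PRSS35 stood at 0.9993. It passed on centring (1.08) and with the other young estimate (1.01).

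Shorter half-lives in old cells included collagen and its chaperone. COL3A1 had a half-life of 19.9 h in young and 8.76 h in old cells, a 2.28-fold shortening, while its synthesis rate was similar (4643 and 4873). Its implied level was 2.17-fold lower. SERPINH1 (HSP47), the collagen-specific chaperone of the endoplasmic reticulum, had 9.92 and 4.56 h, with synthesis rates of 5109 and 5880 and a level 1.89-fold lower. OLFM1 had 11.3 and 5.46 h and a level 2.42-fold lower. The other genes of this group did not pass 2-fold in half-life. MCM5, a subunit of the replicative helicase, had 8.56 and 4.28 h, with a log2 ratio of -0.9993. MTMR7, a myotubularin-related lipid phosphatase, had 14.9 and 7.77 h. ATF5, a stress-responsive transcription factor, had 17.1 and 9.08 h. In both MTMR7 and ATF5 synthesis was higher in old by nearly as much, and the level differed by -0.05 and 0.04 on the log2 scale. The call on OLFM1 was lost when ratios were centred on the main-set median (-0.97).

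Among the genes eligible for naming, the largest log2 synthesis ratio was that of RSPO2, a secreted R-spondin that strengthens Wnt signalling. Its synthesis rate was 640.7 in young and 2924 in old cells, 4.56-fold higher, at half-lives of 1.40 and 1.41 h. SLC6A9, the glycine transporter GLYT1, had 183.7 and 824.9, and ASNS, asparagine synthetase, had 315.4 and 1171. In SLC6A9 and ASNS the half-life was shorter in old (3.18 against 4.10 h and 4.77 against 6.98 h), so that the level ratios of 3.48-fold and 2.54-fold were smaller than the synthesis ratios. The others were ACSS3, a mitochondrial acyl-CoA synthetase (58.6 and 213.7), BASP1, a membrane-bound cytoskeletal regulator (345.3 and 1174), and GRIA3, a glutamate receptor subunit (46.5 and 148.6). By level, CCN5, a matricellular protein of the CCN family, and CEP128, a centriolar protein, were added, with levels 3.24-fold and 3.02-fold higher in old at nearly equal half-lives.

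The lowest log2 synthesis ratio among the eligible genes was that of CYP1A1, the xenobiotic-metabolising cytochrome induced through the aryl hydrocarbon receptor. Its synthesis rate was 964.5 in young and 158.3 in old cells, and its half-life 7.42 and 4.45 h, which gave a level 10.2-fold lower. HMGA1, an architectural chromatin protein, had synthesis rates of 754.9 and 144.3. CCND1 (cyclin D1), which drives entry into the cell cycle, had 1175 and 232.5. In HMGA1 and CCND1 the half-life was longer in old, and the levels were 3.94-fold and 4.495-fold lower. MAP1A, a microtubule-associated protein, had 1294 and 333.0. MEDAG, a regulator of adipocyte differentiation, had 4995 and 1503, and SLC12A7, a potassium-chloride cotransporter, had 718.9 and 216.6. CSPG4, the NG2 proteoglycan found on pericytes and on chondrocytes, joined this group by level. Both its synthesis rate (2997 and 1395) and its half-life (6.64 and 3.95 h) were lower in old, and its level was 3.61-fold lower.

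**Figure D3:**
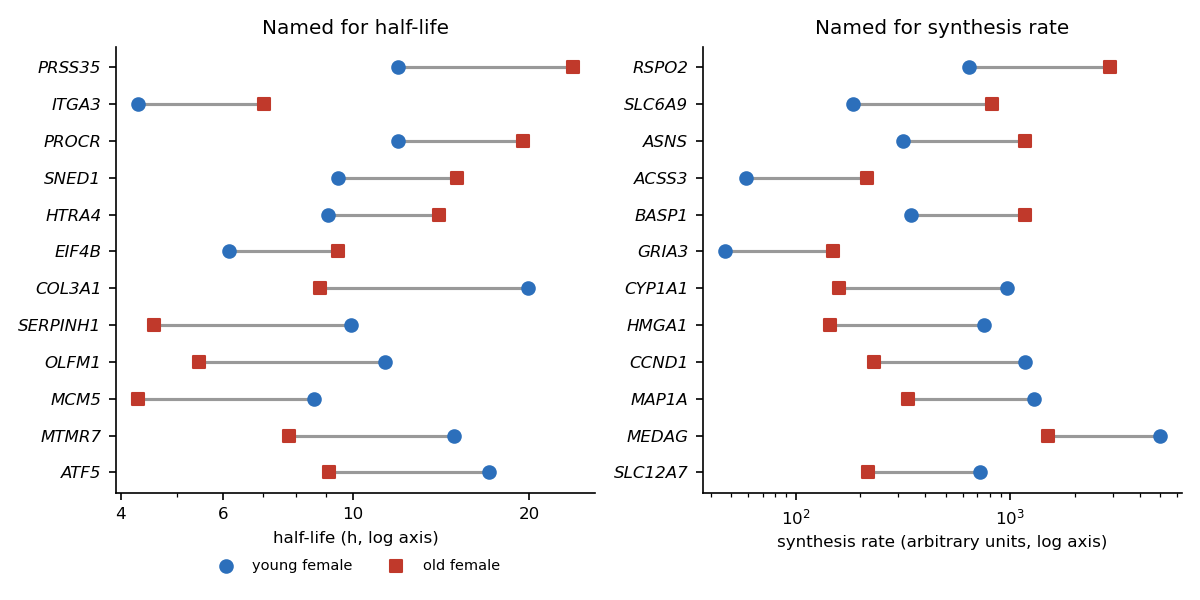
Young female (blue circles) and old female (red squares) values of the 12 genes named for half-life (left, hours, log axis) and the 12 named for synthesis rate (right, arbitrary units, log axis). Each symbol is the authors' group value, without an error. COL3A1 stood at 19.9 h in young and 8.76 h in old cells, and RSPO2 at 640.7 and 2924.

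Most matrix genes of cartilage lay above the half-life range. Of 11 cartilage collagens listed, 9 had a half-life over 24 h in a group, as had 20 of 23 other cartilage matrix proteins. Half-lives above 24 h are poorly resolved by 4 h of labelling, and the values stop at 69.3 h, a ceiling that 132 genes of the table reached in a group. For these genes only the level is described below. Among all 934 genes with a half-life over 24 h, 58 were past 2-fold higher in level in old (6.21%) and 51 past 2-fold lower (5.46%). Their median log2 level ratio was 0.10, and 552 were higher by any amount.

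Of the 11 cartilage collagens, 8 were lower in level in old cells. COL2A1 had synthesis rates of 14651 in young and 8935 in old cells at half-lives of 22.6 and 23.9 h, a log2 level ratio of -0.63. COL9A2, a chain of the type IX collagen that coats type II fibrils, had a log2 level ratio of -1.35. COL9A1 stood at -0.97 and COL9A3 at -0.59. COL11A1 and COL11A2, chains of the fibril-nucleating type XI collagen, stood at 0.02 and -0.26. COL10A1, the collagen of hypertrophic chondrocytes, differed in the opposite direction, with a log2 level ratio of 4.42. In the whole collagen list the median log2 level ratio was -0.38, with 1 of 11 past 2-fold higher and 1 lower, against 6.21% and 5.46% of genes over 24 h, where 9 of the 11 lay, and 2.13% and 1.99% of all 11056 genes.

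Proteoglycans and other matrix proteins divided. ACAN had synthesis rates of 28052 in young and 15212 in old cells and half-lives of 16.4 and 21.7 h, so the log2 level ratio was -0.48. HAPLN1, the link protein that fastens aggrecan to hyaluronan, had rates of 8592 and 4081 at 13.5 and 14.1 h and a log2 level ratio of -1.01, which became -0.94 with the other young estimate. MATN4, a matrilin, stood at -1.17. Several small leucine-rich proteoglycans were higher in old cells. LUM (lumican) stood at 2.98, EPYC (epiphycan) at 2.61 with 15.1 and 79.7, DCN (decorin) at 1.35, OGN (osteoglycin) at 1.17 and FMOD (fibromodulin) at 0.71. Higher levels also occurred for CILP (cartilage intermediate layer protein, 1.45), MATN2 (1.35), CLU (clusterin, an extracellular chaperone, 1.28), ECRG4 (1.15) and COMP (0.83). The related PRELP, BGN (biglycan), ASPN (asporin) and CHAD stood at -0.06, -0.31, -0.02 and 0.01. Of the 23 listed, 8 were past 2-fold higher and 2 lower, against 6.21% and 5.46% of all genes over 24 h, where 20 of the 23 lay, and the median log2 level ratio was 0.24.

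Most transcription factors of the chondrocyte programme differed by less than 2-fold. SOX9, which drives the cartilage genes, had half-lives of 0.750 and 0.727 h and synthesis rates of 13287 and 9794, a log2 level ratio of -0.49. Its partners SOX5 and SOX6 stood at -0.39 and 0.42. TRPS1 stood at -0.01, RUNX1 at 0.32 and RUNX2 at 0.70. Of 17 listed, 1 passed 2-fold in level, FOXA3 at 1.42, a share near the 2.13% higher and 1.99% lower of all genes.

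Most genes of fibroblastic matrix were lower in old cells. Of 23 listed, 7 were past 2-fold lower in level and 0 higher, against 1.99% and 2.13% of all genes and 5.46% and 6.21% of those over 24 h, where 16 of the 23 lay. The median log2 level ratio was -0.63. COL1A1 and COL1A2, the chains of type I collagen, stood at -2.86 and -1.82. COL1A1 differed in synthesis (113.1 in young and 18.4 in old cells, at 17.0 and 14.4 h), whereas COL3A1 differed in half-life as described above. The others were TAGLN (transgelin, a smooth muscle actin-binding protein, -2.78), COL4A1 (-1.71), COL4A2 (-1.26) and VCAN (versican, -1.68). FN1 (fibronectin) and THBS1 (thrombospondin 1), the members of highest level, stood at 0.69 and 0.73, and with them the summed level of the list was 1.34 times that in young cells. TNC (tenascin C) was lower in synthesis by 1.04 on the log2 scale and longer in half-life (12.4 and 16.0 h), with a log2 level ratio of -0.68. The synthesis call on TNC was lost with the other young estimate (-0.98).

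Markers of other cells were lower in part. All 5 listed muscle and pericyte markers were lower in level in old cells, 3 of them past 2-fold (TAGLN, which is also among the fibroblastic matrix genes, MCAM at -2.13 and CSPG4 at -1.85), against 1.99% of all genes and 5.46% of those over 24 h. Their summed level in old cells was 0.267 times that in young cells. The others, RGS5 and DES (desmin), stood at -0.30 and -0.12. Of the 12 synovial and tendon fibroblast markers, 8 were lower and 4 higher, with a median log2 level ratio of -0.14. Their summed level in old was 1.16 times that in young cells. That sum is weighted toward CCDC80, the member of highest level, which had half-lives over 24 h and stood at 0.54. THY1 stood at -0.9998, just short of 2-fold, PRRX1 at 0.01, PDPN at -0.14 and MKX, a tendon transcription factor, at 1.04. Among bone markers, SPP1 (osteopontin) stood at 0.72 and IBSP (bone sialoprotein) at 0.77, while ALPL (alkaline phosphatase) stood at -0.67. The leukocyte marker CD14 stood at 0.26, and the endothelial markers ERG and VWF at -0.41 and 0.26. The part of these cell types in the lower fibroblastic matrix genes was not tested.

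**Figure D4:**
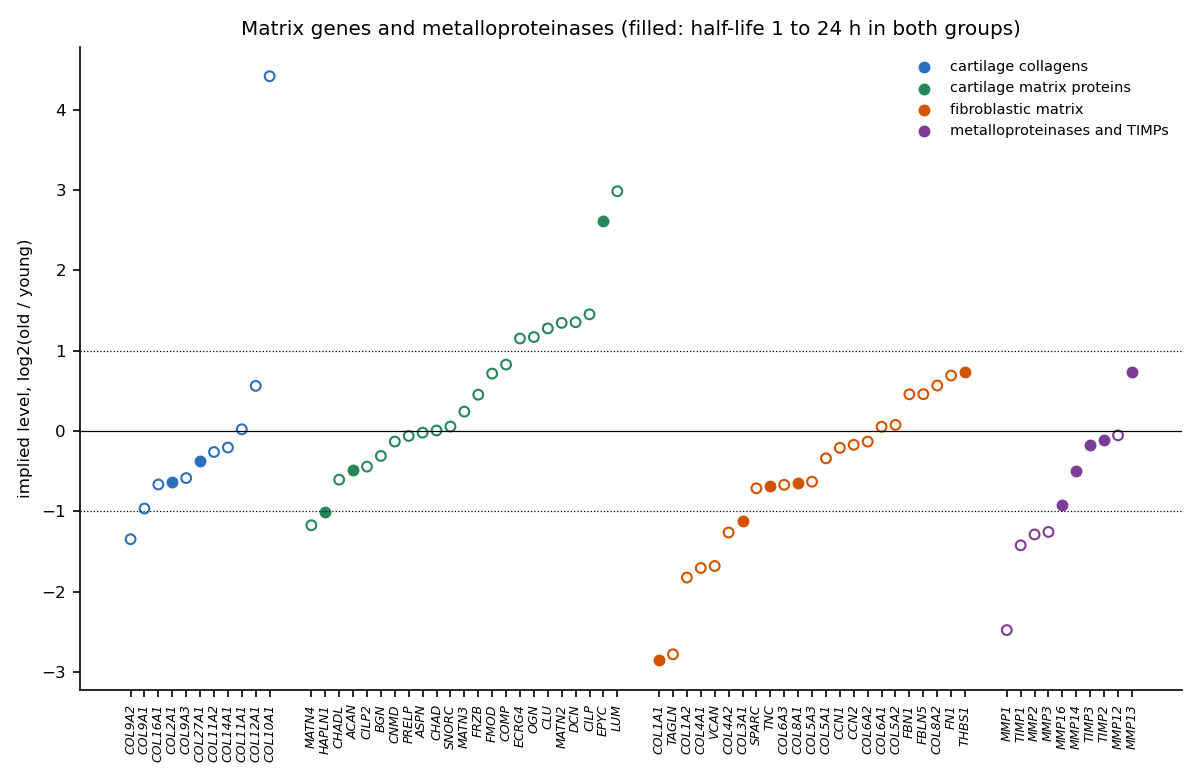
Log2 ratio (old over young) of implied level for each listed cartilage collagen, cartilage matrix protein, fibroblastic matrix gene, and metalloproteinase or TIMP (inhibitor), ordered within its list. Filled points belong to the main set and open points to genes outside its half-life range; dotted lines mark 2-fold. COL10A1 (4.42) and LUM (2.98) are highest and COL1A1 (-2.86) is lowest.

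Metalloproteinases and their inhibitors were mostly lower. Of 10 listed, 9 were lower in level in old cells and 4 passed 2-fold: MMP1 (interstitial collagenase, -2.48), TIMP1 (a metalloproteinase inhibitor, -1.42), MMP2 (gelatinase, -1.29) and MMP3 (stromelysin, -1.26). All 4 had a half-life over 24 h in at least 1 group, and 5.46% of such genes passed 2-fold lower. MMP13 was the exception in direction, with synthesis rates of 189.6 and 364.6.

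The 2 main aggrecanases had opposite directions. ADAMTS5 had synthesis rates of 3485 in young and 7167 in old cells, a log2 ratio of 1.04, and half-lives of 2.55 and 2.34 h. ADAMTS4 had 389.3 and 226.5 at 2.12 and 1.66 h, with a log2 level ratio of -1.13. ADAMTS12 and ADAMTS14, the latter a procollagen-processing enzyme, stood at -1.87 and -2.04 in level. HTRA3, a secreted serine protease, stood at -1.92, and its relative HTRA1 at 0.97. Of the 16 listed ADAMTS, HTRA and cathepsin genes, 4 passed 2-fold lower in level and 0 higher, against 1.99% and 2.13% of all genes. The synthesis call on ADAMTS5 was lost on centring (0.97).

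Members of the TGF-beta and BMP list past 2-fold went in both directions. INHBA, the subunit of activin A, had synthesis rates of 1277 in young and 583.8 in old cells, and BMP6 had 614.6 and 301.1. GDF6 had 829.3 and 392.6. Half-lives of these 3 ligands differed by at most 0.11 on the log2 scale. BMP2, with half-lives of 0.875 and 0.892 h, had 7308 and 2980. GDF10 differed, with 162.6 and 341.7. FST (follistatin), which binds and blocks activin, had 102.7 and 552.7 and a log2 level ratio of 2.20, while the related inhibitor FSTL3 stood at -1.36. BAMBI, a decoy receptor, stood at 1.17 and the endothelial-type receptor ACVRL1 at -1.30. TGFBR2, the member of highest level, stood at 0.28. In the 31 main-set members, 2 were higher and 5 lower in synthesis past 2-fold, against 3.06% and 1.67% of the main set, and the median log2 level ratio was -0.05 against -0.01 for the main set. The synthesis calls on BMP6 and ACVRL1 were lost with the other young estimate (-0.96 and -0.9962).

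In the Wnt list of 20 main-set members, RSPO2 was the 1 gene past 2-fold higher in level, against 1.72% of the main set. The ligands WNT5B (-1.24) and WNT11 (-1.05) were lower, against 1.7%, the latter not past the threshold with the other young estimate (-0.99). CTNNB1 (beta-catenin) stood at 0.27 and LGR4, an R-spondin receptor, at -0.02. Among IGF and FGF genes, FGF1 was higher through both components (log2 0.62 in synthesis and 0.61 in half-life) and stood at 1.23 in level. FGF18, a growth factor for cartilage, was lower in both components (-0.41 and -0.74) and stood at -1.15. These were the 2 past 2-fold in level of 13 main-set members, against 3.43% of the main set. FGFR3 and FGFRL1 stood at -0.79 and -0.78. None of 18 main-set Notch and Hedgehog members passed 2-fold in any measure, near the main-set shares of 0.889% for half-life, 4.73% for synthesis and 3.43% for level.

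Most of the listed interferon-stimulated genes were lower in level in old cells. Of 26 in the main set, 23 were lower in level, 6 past 2-fold lower and 1 higher (1.7% and 1.72% of the main set), with a median log2 ratio of -0.63 in synthesis, -0.02 in half-life and -0.48 in level. Antiviral OAS enzymes, which make 2-5A to activate RNase L, were among those past 2-fold lower in synthesis. OAS3 had synthesis rates of 301.3 in young and 64.4 in old cells, OAS1 330.0 and 103.2, and OAS2 794.8 and 301.4. ISG15, a ubiquitin-like modifier, had 292.1 and 93.2, and IRF7, a transcription factor of the pathway, had 108.9 and 56.7. Their half-lives differed little, for example 5.49 and 5.90 h for ISG15. TRIM21 stood at -1.06 in level, and at -0.9969 with the other young estimate. MX1, an antiviral GTPase, stood at -0.45. NMI (1.03) and, below the half-life range, IFIT2 (1.76) were the exceptions past 2-fold.

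Immediate-early genes, whose transcripts appear within minutes of a stimulus, lay largely under the range, with 18 of 29 having a half-life under 1 h in a group. Of all 29, 26 were lower in level, as were 5454 of the 11056 genes of the table, and 3 passed 2-fold lower, against 1.99% of all genes: DUSP5, a MAP kinase phosphatase (-2.24), and the AP-1 members FOSB (-2.12) and FOSL1 (-1.60). FOSL1 had synthesis rates of 2240 in young and 975.8 in old cells. JUNB, with half-lives of 0.638 and 0.610 h, stood at -0.03, and DUSP1 at -0.58.

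Among 32 main-set heat-shock genes, 25 were lower in level and 1 past 2-fold, against 1.7% of the main set. Past 2-fold in synthesis, 1 was higher and 1 lower, against 3.06% and 1.67%. Past 2-fold in half-life, 1 was longer and 2 shorter, against 0.264% and 0.626%. The median log2 half-life ratio was -0.23, against -0.08 for the main set. HSPA6, a strictly inducible HSP70, had synthesis rates of 343.0 in young and 13.98 in old cells, the lowest synthesis ratio of the main set (-4.62), with half-lives of 5.06 and 15.8 h. HSPA5 (BiP), the member of highest level in the main set, stood at -0.09 in level. Of 31 listed genes of the unfolded-protein response, 4 were past 2-fold higher in level, against 2.13% of all genes: ASNS (1.34) and, with half-lives under 1 h in old cells, CHAC1 (1.80), TRIB3 (1.26) and ERN1 (1.10). The first 3 are also in the list of amino acid response genes. Of the 18 main-set members, 13 were lower in level and the median was -0.07. CREB3L1, a membrane-bound transcription factor, had a shorter half-life (6.23 and 3.06 h, a log2 ratio of -1.02, and -0.94 on centring).

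Most listed proliferation genes were lower in level in old cells. Of 22 in the main set, 18 were lower, 4 higher and 5 past 2-fold lower, against 1.7% of the main set, and the median log2 level ratio was -0.38. Besides CCND1, these were CDCA7L (-2.84), UHRF1 (a reader of hemimethylated DNA, -1.71), MCM2 (-1.09) and TK1 (thymidine kinase, -1.02, and -0.96 with the other young estimate). In MCM2 half-life was the larger component (4.93 and 2.98 h). AURKA, a mitotic kinase, had a shorter half-life (3.26 and 1.51 h) and a higher synthesis rate (38.4 and 85.2), and its level differed by 0.04. Of the 23 main-set p53 targets and cell-cycle inhibitors, 15 were higher in level (median 0.13) and 0 passed 2-fold, against 3.43% of the main set. In synthesis 1 of this list was past 2-fold higher (TP53INP1, 1.16), against 3.06% of the main set. Past 2-fold lower was 1 (GADD45G, -1.05, and -0.99 with the other young estimate), against 1.67%.

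**Figure D5:**
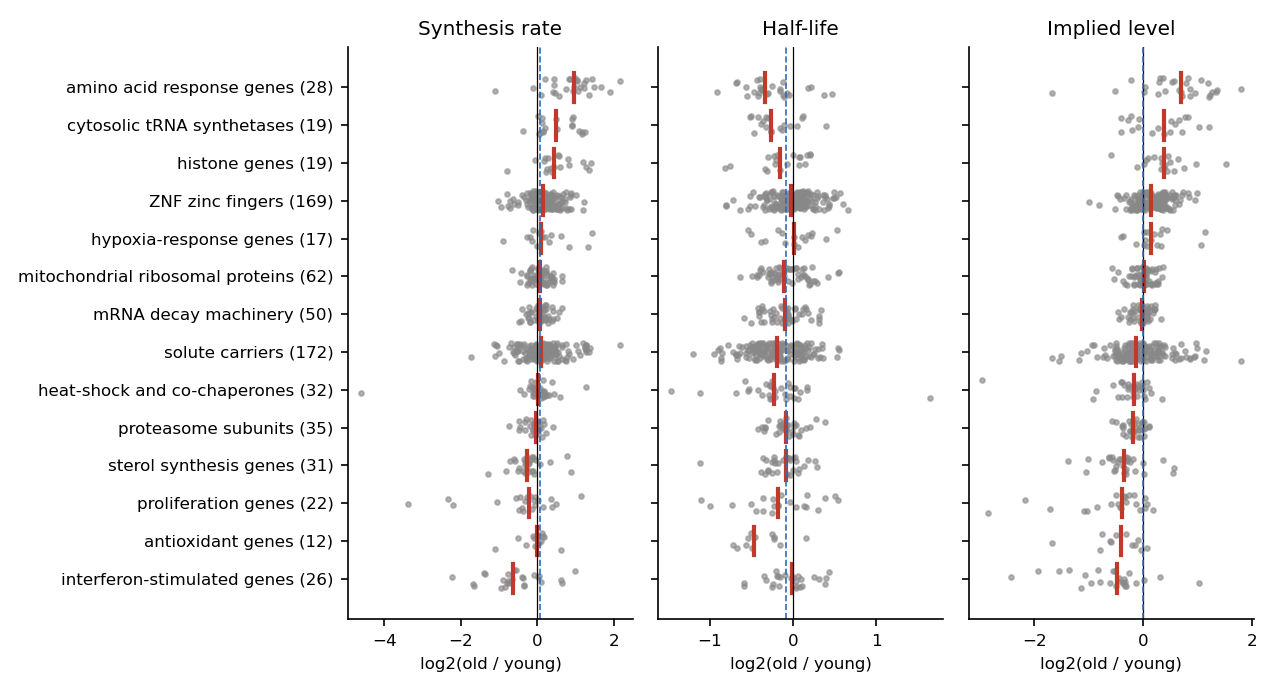
Log2 ratio (old over young) of synthesis rate, half-life and implied level for the main-set members of 14 gene lists, with the number of members in parentheses. Grey points are genes, red bars list medians, and the dashed blue line is the median of all 9108 genes. Amino acid response genes have the highest synthesis median (0.97) and interferon-stimulated genes the lowest (-0.63).

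Most sterol and lipid synthesis genes were lower in old cells by less than 2-fold. All 31 listed were in the main set. Of these, 27 were lower in synthesis rate and 26 in level, with medians of -0.26 and -0.36, while 59.9% and 49.1% of the main set were higher. Past 2-fold, 1 was lower in synthesis and 3 in level, against 1.67% and 1.7% of the main set. MVK, mevalonate kinase, had synthesis rates of 517.5 in young and 313.6 in old cells and a log2 level ratio of -1.05. HSD17B7, a sterol reductase, had 205.3 and 84.6 and a log2 level ratio of -1.02. ELOVL6, which elongates fatty acids, had half-lives of 3.42 and 1.58 h and stood at -1.38. SCD (stearoyl-CoA desaturase), the member of highest level, stood at 0.00073. The calls on MVK and HSD17B7 were lost with the other young estimate (-0.99 and -0.95).

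Of 12 antioxidant genes in the main set, 11 had a shorter half-life in old cells, none past 2-fold. The median log2 half-life ratio was -0.47, against -0.08 for the main set, and the median synthesis ratio was -0.02. In level 11 were lower, with a median of -0.40 and 1 past 2-fold, against 1.7% of the main set. Over all 26 listed, 18 were lower and 8 higher in level, with a median of -0.17. HMOX1 (heme oxygenase 1) had half-lives of 3.11 and 1.89 h, GCLC (the catalytic subunit of glutathione synthesis) 3.28 and 2.06 h, GSR (glutathione reductase) 3.94 and 2.77 h and NQO1 21.4 and 15.2 h. SLC7A11, the cystine importer, was lower in both components, with synthesis rates of 31.0 and 14.3 and a level 3.19-fold lower. CAT (catalase) and GPX3, both long-lived, stood higher in level, at 0.99 and 0.92.

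Of 18 main-set glycolytic enzymes, 16 had a shorter half-life in old cells. Their median log2 ratio was -0.20 against -0.08 for the main set, and none passed 2-fold in any measure. On centring 13 were shorter and the median was -0.12. ALDOA (aldolase A) had 14.8 and 11.6 h and PFKP (phosphofructokinase) 9.02 and 6.53 h. GAPDH, above the range, had a log2 level ratio of -2.47e-05. Of 17 main-set hypoxia-response genes, 14 were higher in level, against 49.1% of the main set. Their median log2 level ratio was 0.15, against -0.01. Past 2-fold higher were 2, against 1.72%: EGLN3, an oxygen-sensing prolyl hydroxylase (1.14), and STC2, a secreted glycoprotein (1.06). STC2 is also in the list of amino acid response genes. VEGFA and BNIP3 stood at 0.01 and 0.15.

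Genes of the amino acid response were higher in synthesis. This list of 38 genes was written after some of its values had been seen and is a description only. Of the 28 listed members in the main set, 26 were higher in synthesis rate and 13 past 2-fold, against 59.9% and 3.06% of the main set. Half-life was longer in 4 and shorter in 24, none past 2-fold, against 36.1% longer in the main set. The medians were 0.97 in synthesis, -0.34 in half-life and 0.70 in level. Besides ASNS and SLC6A9, the enzymes of serine and one-carbon metabolism PSAT1 (71.1 in young and 147.3 in old), SHMT2 (1008 and 2333), MTHFD2 (1473 and 3445) and ALDH1L2 (68.2 and 189.5) had higher synthesis rates. So had the neutral amino acid transporters SLC7A5 (2321 and 4861) with its partner SLC3A2 (1908 and 4174), and SLC1A4 (1041 and 2509). VLDLR, GTPBP2, STC2 and EIF4EBP1, an inhibitor of cap-dependent translation, had log2 synthesis ratios of 1.67, 1.36, 1.45 and 1.05. ATF4, the transcription factor of this response, had synthesis rates of 7317 and 9771 at 1.80 and 1.74 h, a log2 level ratio of 0.37. SLC7A11 was the exception past 2-fold lower. The synthesis calls on PSAT1, SLC7A5 and EIF4EBP1 were lost on centring (0.98, 0.9960 and 0.98).

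Enzymes that charge tRNAs in the cytosol had the same direction, again in a group formed after values had been seen. Of 19 in the main set, 18 had a higher synthesis rate in old cells (median log2 ratio 0.49), which became 15 on centring. In the main set 59.9% were higher and 3.06% past 2-fold, and here 4 passed: MARS1 (1.246), AARS1 (1.17), GARS1 (1.17) and WARS1 (1.10). Half-lives were shorter in 15 of 19, and the median level ratio was 0.38. HARS1 was lower in synthesis (-0.37). The 15 mitochondrial enzymes of the same function in the main set had a median of 0.11 in synthesis and -0.00025 in level, with none past 2-fold.

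Solute carriers, the membrane transporters of small molecules, showed both directions. Of 172 in the main set, 14 were higher and 6 lower in synthesis past 2-fold, which is 8.14% and 3.49% of them against 3.06% and 1.67% of the main set, and on centring 12 were higher. The median log2 half-life ratio was -0.19 against -0.08 for the main set, and -0.11 on centring. Higher ones included SLC39A8, a zinc importer (1.12 in level), and SLC6A12, a betaine transporter (1.00), whose synthesis call was lost on centring (0.95). Lower ones included SLC16A7, a monocarboxylate transporter (-1.54), and SLC35D1, a nucleotide-sugar transporter needed for chondroitin sulfate (-1.15). SLC39A14, the member of highest level, stood at 0.28.

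Most histone genes were higher in synthesis. All 19 histone genes were in the main set, and 17 were higher in synthesis rate in old cells, with medians of 0.44 in synthesis and 0.39 in level. The 4 past 2-fold in synthesis, against 3.06% of the main set, were H2BC19 (1.40), H1-1 (1.36), H1-4 (1.26) and H2AJ (1.21). The first 3 lay in the lowest quartile of level, where 185 of 2277 genes passed 2-fold higher. H1-2, a linker histone, had rates of 640.4 and 1144, and H3-3A, a replication-independent histone H3, had 403.6 and 588.3. H2AX, a variant involved in DNA repair, was lower (102.4 and 59.0). Libraries were made from poly(A) RNA, which holds few replication-dependent histone transcripts. Zinc-finger genes named ZNF were shifted by little, with 120 of 169 main-set members higher in synthesis and 122 in level, at medians of 0.16 and 0.15. Of all main-set genes, 59.9% and 49.1% were higher. On centring 104 members were higher in synthesis and 123 in level, at medians of 0.08 and 0.15. In this list 3 members (1.78%) were higher and 1 (0.59%) lower past 2-fold in synthesis, against 3.06% and 1.67% of the main set.

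The machinery of translation and of protein and RNA turnover held few genes past 2-fold, as did the main set (0.889% in half-life, 4.73% in synthesis and 3.43% in level). Cytosolic ribosomal proteins, including paralogs of similar name, had half-lives over 24 h in 56 of 68, and 63 of 68 were higher in level in old cells, with a median of 0.30 and none past 2-fold. RPLP0 and RPS2 stood at 0.55 and 0.10. In the 62 main-set mitochondrial ribosomal proteins and 41 respiratory chain subunits, the median level ratios were 0.01 and -0.06, with none past 2-fold in any measure. Proteasome subunits were lower in level in 29 of 35, with a median of -0.18 and none past 2-fold. Of 50 main-set genes of the mRNA decay machinery, 0 passed 2-fold in any measure, and their median half-life and level ratios were -0.10 and -0.01. Among 12 main-set genes of RNA N6-methyladenosine, IGF2BP2, a binding protein that is also in the list of AU-rich element binders, was lower in synthesis (35.3 and 13.98) and longer in half-life (11.4 and 15.5 h). ZFP36L2, an RNA-binding protein that promotes decay, had half-lives of 0.639 and 0.462 h and a level 2.27-fold higher in old.

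Inflammatory genes of the NF-kappaB list had 0 of 22 main-set members past 2-fold in level, a share near the 3.43% of the main set. Among all 36 listed, 1 passed 2-fold higher in level, the long-lived LCN2 (1.82), against 2.13% of all genes. BIRC3, an apoptosis inhibitor, was higher in synthesis (1.27) and LIF, a cytokine, was lower (-1.02, and -0.94 with the other young estimate). TNFRSF11B (osteoprotegerin) and VCAM1, the members of highest level, stood at -0.17 and -0.32.

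Cell-junction genes and aryl hydrocarbon receptor genes were also described after their values had been seen. Desmosomal DSG2 (2.85 in young and 67.4 in old), DSP (83.9 and 376.9), JUP (240.5 and 626.7) and PKP2 (45.9 and 125.4) had higher synthesis rates. These were the 4 past 2-fold higher in synthesis of 7 listed, against 3.06% of the main set. DSG2 and PKP2 lay in the lowest quartile of level, where 185 of 2277 genes passed 2-fold higher. PPL and PKP1 had lower levels (-1.57 and -1.14). PKP1 also lay in the lowest quartile of level, where 93 of 2277 genes passed 2-fold lower in level. In level 3 of the 7 passed 2-fold higher and 2 lower, against 1.72% and 1.7% of the main set. Beside CYP1A1, CYP1B1 was lower in level (-1.11), with synthesis rates of 36066 and 22076, while the receptor AHR stood at 0.25. TIPARP, NQO1 and ARNT stood at -0.77, -0.59 and -0.40. Of these 6 listed receptor-pathway genes, 5 were lower in level, as were 5454 of all 11056 genes. CYP1A1 and CYP1B1 were the 2 past 2-fold lower, against 1.99% of all genes.

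Some other long-lived genes with large level differences were selected after their values were seen. F5 (coagulation factor V) had a log2 level ratio of 3.26. LCN2 (lipocalin 2, an iron-scavenging protein of inflammation), from the NF-kappaB list above, stood at 1.82. CFI (complement factor I) stood at 1.87, SCUBE2 at 2.12 and ENPP2 (autotaxin, which makes lysophosphatidic acid) at 1.51. Lower were PLA2G2A, a secreted phospholipase (-2.17), S100A12, a calgranulin (-1.96), and COL15A1, a basement-membrane collagen (-2.03).

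Below 1 h the split of a level into synthesis and half-life was unstable. Of the 1014 genes with a half-life under 1 h in a group, 225 (22.2%) passed 2-fold in half-life and 34 (3.35%) in level. A set of 191 genes had a half-life under 0.1 h in one group and over 0.5 h in the other, 112 with the short value in old and 79 with it in young. In 152 of these 191 the absolute log2 level ratio was under 0.5. The cytokine IL6, for example, had half-lives of 0.0230 and 0.620 h and synthesis rates of 44746 and 2014, with a log2 level ratio of 0.28. Of 187 such genes in both tables, 61 also had young half-lives that differed 2-fold or more between the authors' estimates of the same samples. Of all 10974 genes in both tables, 107 did so, these 61 included. The 187 were themselves picked by an extreme half-life in a group. CHAC1, a glutathione-degrading enzyme, was among the short-lived genes past 2-fold in level (1.80).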

How the data were processed

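Per the labels' protocols, chondrocytes were labelled with 4sU for 4 h, RNA was alkylated for 15 min and poly(A)-selected, strand-specific libraries were made. The submitters' processing notes list cutadapt 4.5, STAR 2.5.3 and the EquCab3.0 build. The kinetic model, gene filter and way of combining samples are not given in the sources used here. Per the file headers, the deposited signal values are a synthesis rate and a half-life per gene and group, with 0 columns of values per sample. Depth is unknown, and no interval, SD or p-value could be computed.

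Log2 ratios of old to young, the implied level and medians were computed with Python 3.11.15, pandas 2.3.3 and NumPy 2.4.6, and rank correlations with SciPy 1.17.1. No pseudocount was used. The ratio and counting steps were tested on simulated data. Genes whose half-lives lay between 1 and 24 h in old as well as young cells formed the main set, and an absolute log2 ratio of 1 was the threshold. Named genes were the 6 largest rises and falls of each measure among symbols whose 2 young estimates differed by under 1.25-fold and whose mean level was at or above the table's median, plus list members past the threshold and the 2 members of highest level of a described list. Other genes were chosen after their values were seen, and a few genes that the rule names are not reported here. The members and the 38 lists were chosen with earlier results of these data known, and 5 further lists were added after the values were seen. Alternatives were a threshold of 0.5, every gene, half-lives of 2 to 12 h, the upper 75% by level, centring, the other young estimate and, added after seeing the data, genes at or above the median level.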

Additional observations from a re-analysis of the deposited data

How the results depend on the processing

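With a threshold of 0.5 the counts were 865 genes for half-life, 1763 for synthesis and 1301 for level. Every gene of the table gave 390 for half-life and 831 for synthesis. Half-lives of 2 to 12 h, with 5308 genes compared, gave 33, 226 and 180. The upper 75% by level gave 7, 152 and 131, and genes at or above the median level 3, 85 and 69. With the other young estimate the median was 0.15 for synthesis and 0.058 for level, and the split of synthesis calls was 378 higher and 126 lower, against 279 and 152. Centring gave 35 longer and 39 shorter half-lives, against 24 and 57, and 240 higher and 186 lower synthesis rates. The other 25 summary values kept within the limits set for them. Of the named calls, 9 were lost on centring and 15 with the other young estimate, 1 (the half-life of PRSS35) was gained under each, and none reversed. No paired analysis was possible because the table holds 1 value per group, and no replicate could be left out. The depth of the samples is unknown, so no limit on the smallest detectable difference can be given.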
